A study of Homo sapiens with 8 samples.

Results

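The 9 genes described here encode the enzymes of the urea cycle and the mitochondrial carriers that serve it. They are NAGS, CPS1, OTC, ASS1, ASL, ARG1, ARG2, SLC25A15 and SLC25A13, and all 9 were found by symbol among the 58735 genes of the deposited table. RNA was measured by poly(A) RNA-seq in HepG2, an established human hepatocellular carcinoma line. In the 4 DNMT3A libraries the cells carried a lentivirus for overexpression of DNMT3A, an enzyme that adds methyl groups to cytosine in CG dinucleotides, and are labelled DNMT3A overexpression (library names pLV_EGFP_DN). The 4 control libraries came from HepG2 cells infected with a control lentivirus and are labelled WT (pLV_EGFP_NC), so both groups had been infected. The labels name neither the promoter of the transgene nor a clone, and leave unsaid whether the 4 libraries of each group go back to separate infections. P-values are therefore measured against a spread among 8 libraries that may be purely technical.

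The urea cycle turns ammonia, which is toxic, into urea for excretion, and in humans runs in full mainly in the liver. It starts in mitochondria, where NAGS makes N-acetylglutamate, the activator that CPS1 needs to form carbamoyl phosphate. OTC joins that product to ornithine, and the citrulline formed leaves for the cytosol, where ASS1 and ASL make arginine and the arginases release urea and ornithine. HepG2 cells are known for an incomplete cycle, with little OTC and ARG1, and ASS1 is known to be silenced by promoter methylation in some tumours. DNA methylation was not measured in the files used here.

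The promoters of the 9 genes held between 1 and 35 CG dinucleotides. The window counted was the 250 bases before the gene start in the RefSeq promoter table (GRCh38.p14), in which all 9 genes matched, with 12 windows in all. The motif was CG, which reads the same on both strands, and 93.9% of the 35116 windows in the table held at least 1, with a median of 11. SLC25A15 had 35, ARG2 27, ASS1 24 and 21 in its 2 windows, ASL 22, SLC25A13 21 and NAGS 13. OTC had 2, ARG1 had 1 and the 3 windows of CPS1 had 1, 3 and 3. None of these CPS1 windows lies at the start of its principal transcript in GENCODE 29, so the counts do not describe that promoter. A window with at most 3 CG was among the poorest 29.3% of all windows. Promoters of 3 genes are shown. They are ASS1 (chr9:130444711-130444960, plus strand), the gene with the largest change, and OTC (chrX:38352354-38352603, plus strand) and ARG1 (chr6:131572976-131573225, plus strand), the genes with the lowest levels. The ASS1 window precedes a RefSeq start that lies downstream of the gene start in the deposited table. Capitals mark each CG.
ASS1: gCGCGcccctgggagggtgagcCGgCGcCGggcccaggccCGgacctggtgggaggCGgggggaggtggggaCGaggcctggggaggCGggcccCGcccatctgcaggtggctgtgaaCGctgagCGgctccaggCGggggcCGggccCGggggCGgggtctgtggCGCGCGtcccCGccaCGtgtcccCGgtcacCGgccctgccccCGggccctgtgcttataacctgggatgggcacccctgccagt
OTC: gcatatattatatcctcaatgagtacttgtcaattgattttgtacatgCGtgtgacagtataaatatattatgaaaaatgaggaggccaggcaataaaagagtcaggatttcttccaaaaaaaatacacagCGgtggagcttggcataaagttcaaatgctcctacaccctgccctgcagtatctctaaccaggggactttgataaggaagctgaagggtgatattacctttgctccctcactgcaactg
ARG1: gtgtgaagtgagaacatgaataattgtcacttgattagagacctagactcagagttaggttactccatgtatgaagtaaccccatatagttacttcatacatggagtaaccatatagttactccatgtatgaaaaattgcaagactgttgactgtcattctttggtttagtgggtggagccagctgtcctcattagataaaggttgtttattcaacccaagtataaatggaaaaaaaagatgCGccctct
In the printed windows 24 CG stand in ASS1 against 2 in OTC and 1 in ARG1. These counts describe the letters only, and their relation to the levels or changes of the genes was not tested.

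Of the 9 genes 4 were lower in the DNMT3A libraries and 0 were higher. Levels are given as FPKM, in which fragments are scaled for the length of the gene and the size of the library. Fold changes compare DNMT3A with control (DNMT3A minus control) after log2(FPKM + 1), a scale that understates changes of low genes. Of the 9 genes 7 had a mean FPKM of at least 1 and entered the limma fit over 11620 genes. ASS1, NAGS, CPS1 and SLC25A13 fell at a limma adjusted p under 0.05, while ARG2, SLC25A15 and ASL did not pass. ASS1 alone kept its call throughout: the count of 4 was 3 without DNMT3A library 1, 2 without control library 4, 1 without any other library and 2 without the FPKM filter. The background was high: 20.6% of all tested genes were called, 10.6% lower and 9.93% higher. For ASS1, CPS1 and SLC25A13, 3 of the 7, all DNMT3A libraries lay below all control libraries. That was so for 1510 of the 11620 tested genes, and in either direction the groups stood apart for 25.1% of them. The median log2 fold change of the 7 was -0.20, against -0.011 over all tested genes. In bulk RNA, fewer cells that express a gene and less RNA per cell cannot be told apart.

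Library facts were as follows. The libraries held 15911019 to 17677093 reads, recovered from the FPKM values. DNMT3A, the check of the labels, had 9.75, 10.2, 8.51 and 7.26 FPKM in the DNMT3A libraries, against 3.62, 3.89, 3.45 and 3.64 FPKM in the control libraries, so the groups did not overlap. Reads of a transgene cannot be separated here from those of the endogenous gene. All 8 hepatocyte markers examined passed the FPKM filter, with summed levels of 8730 to 11429 FPKM in DNMT3A libraries and 9132 to 9676 FPKM in control libraries, most of it ALB. Of these 8 markers 3 rose in the limma test: AFP averaged 1143 FPKM in DNMT3A libraries and 370 FPKM in control libraries (adjusted p = 4.83e-05), FGB 107 FPKM in DNMT3A libraries and 34.5 FPKM in control libraries (adjusted p = 5.07e-06), and TTR 17.1 FPKM in DNMT3A libraries and 6.04 FPKM in control libraries (adjusted p = 8.71e-05). The 6 fibroblast markers summed to 0.509 to 0.754 FPKM in DNMT3A libraries and 0.387 to 0.674 FPKM in control libraries, and the 4 endothelial markers to 0.565 to 0.679 FPKM in DNMT3A libraries and 0.435 to 0.547 FPKM in control libraries. Of the 5 leukocyte markers PTPRC and CD3E were at 0 in every library, and their sum of 314 to 345 FPKM in DNMT3A libraries and 198 to 264 FPKM in control libraries was nearly all LYZ (mean 325 FPKM in DNMT3A libraries and 234 FPKM in control libraries). The part of these marker changes in the results below was not tested.

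**Figure D1:**
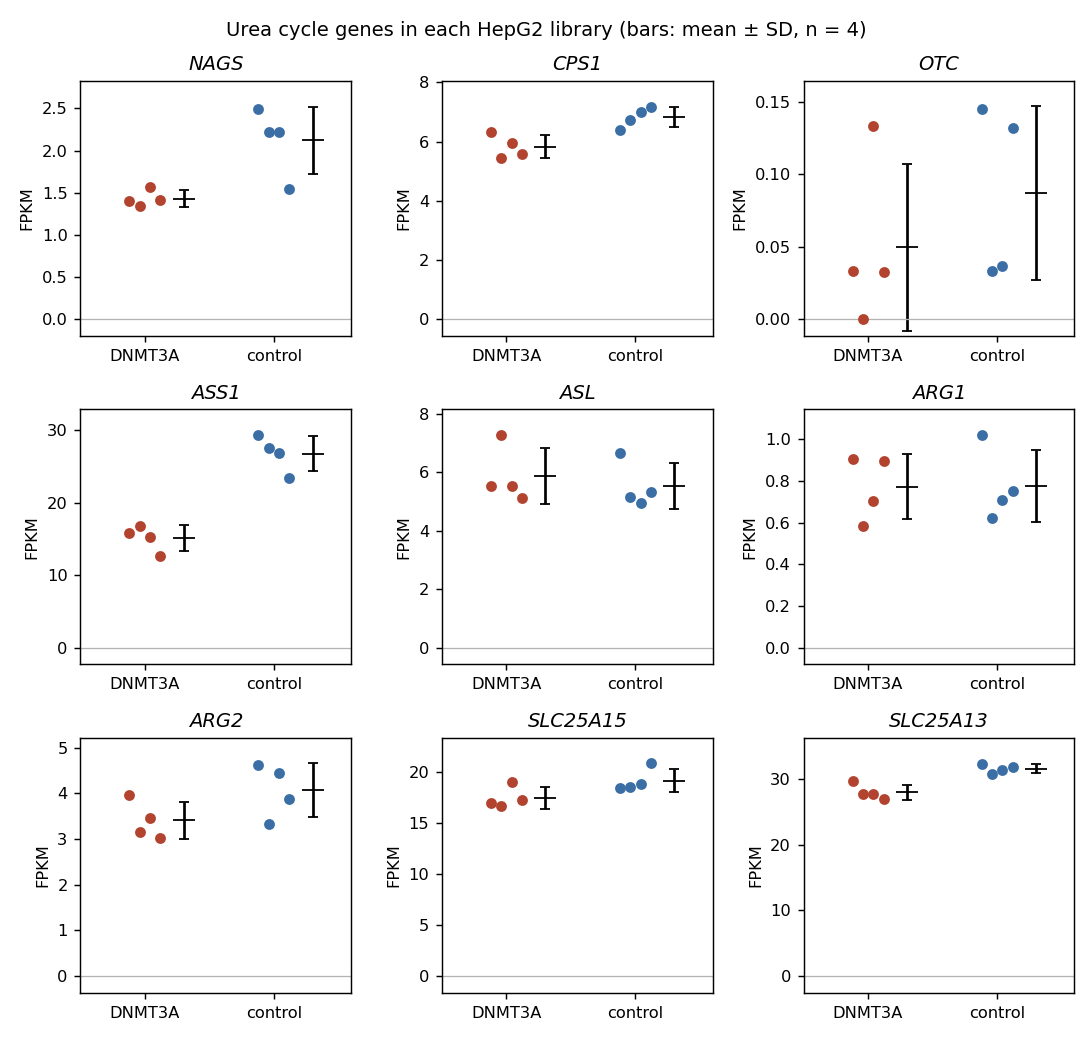
FPKM of each of the 9 genes (vertical axes, linear, each with its own scale) in the 4 DNMT3A and 4 control libraries. Points are libraries and bars the mean ± SD (n = 4). The ASS1 points of the DNMT3A libraries lie between 12.6 and 16.8 FPKM, all below the control points at 23.4 to 29.3 FPKM, while those of ASL, ARG1 and OTC overlap.

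Of the entry enzymes of the cycle NAGS and OTC had low levels, and the first 2, NAGS and CPS1, were called lower. NAGS, which supplies the activator of CPS1 (ENSG00000161653, hg38 chromosome 17, 44004546 to 44009063, plus strand), had 1.40, 1.34, 1.57 and 1.41 FPKM in DNMT3A libraries 1 to 4, against 2.49, 2.22, 2.22 and 1.55 FPKM in control libraries 1 to 4. Control library 4 lay within the range of the DNMT3A libraries, so the groups overlapped. Its log2 fold change was -0.35 (SE 0.101, limma adjusted p = 0.0364). An exact permutation test, two-sided, gave p = 0.0571. These values rest on 69 to 77 reads per DNMT3A library and 77 to 112 per control library.

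CPS1, the mitochondrial ligase that fixes ammonia as carbamoyl phosphate (ENSG00000021826, chromosome 2, 210477682 to 210679107, plus strand), had 6.32, 5.45, 5.94 and 5.58 FPKM in the DNMT3A libraries, against 6.40, 6.73, 7.01 and 7.18 FPKM in the control libraries. The groups did not overlap, but DNMT3A library 1 and control library 1 lay next to each other. The means were 5.82 ± 0.391 FPKM in DNMT3A libraries and 6.83 ± 0.342 FPKM in control libraries (SD, n = 4 each), and the log2 fold change was -0.20 (SE 0.061, limma adjusted p = 0.0455). CPS1 kept its call without DNMT3A library 1 (limma adjusted p = 0.0397) and lost it without each of the other 7 libraries (0.0514 to 0.117). For NAGS the limma adjusted p was 0.00830 with control library 4 left out, and the call was lost without each of the other 7 (0.0586 to 0.0930). Without the FPKM filter neither passed (limma adjusted p = 0.0876 for CPS1 and 0.112 for NAGS).

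OTC, which makes citrulline from ornithine and carbamoyl phosphate (ENSG00000036473, chromosome X, 38352545 to 38421450, plus strand), was almost undetected. DNMT3A libraries 1 to 4 held 1, 0, 4 and 1 reads of OTC, against 4, 1, 1 and 4 reads in the control libraries. The sums were 6 reads in DNMT3A libraries (exact Poisson 95% interval 2.20 to 13.1) and 10 reads in control libraries (4.80 to 18.4), intervals that cover counting error only. The library with 0 reads allows up to 0.0948 FPKM, by the limit of 3 counts. A difference between the groups was not detectable at this depth (two-sided exact permutation p = 0.257).

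ASS1 showed the largest change among the 7 tested genes, in size and in adjusted p. It joins citrulline and aspartate into argininosuccinate (ENSG00000130707, chromosome 9, 130444929 to 130501274, plus strand). Its level was 15.8, 16.8, 15.2 and 12.6 FPKM in DNMT3A libraries 1 to 4, against 29.3, 27.5, 26.8 and 23.4 FPKM in control libraries 1 to 4. Every DNMT3A library was below every control library. The means were 15.1 ± 1.77 FPKM in DNMT3A libraries and 26.8 ± 2.45 FPKM in control libraries (SD, n = 4 each), a ratio of 0.563. The log2 fold change was -0.79 (SE 0.093, limma adjusted p = 0.000727). An exact permutation test, two-sided, gave p = 0.0286, the lowest value possible with 70 assignments of the libraries. Of all tested genes 0.783% had a lower log2 fold change.

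ASL, which splits argininosuccinate into arginine and fumarate (ENSG00000126522, chromosome 7, 66075798 to 66093558, plus strand), did not pass the test. It had 5.52, 7.28, 5.53 and 5.13 FPKM in DNMT3A libraries, against 6.68, 5.16, 4.94 and 5.33 FPKM in control libraries, with overlapping groups. The log2 fold change of 0.069 did not pass (95% interval -0.176 to 0.314, limma adjusted p = 0.690), and DNMT3A library 2 was the highest of the 8. With that library left out it was -0.024 (limma adjusted p = 0.872).

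Copies of ASS1 in the genome did not hold many reads. The table lists 11 ASS1 pseudogenes, near copies between which reads can be split, and 8 of them had 0 reads in all libraries. The other 3 summed to 45 reads in DNMT3A libraries and 52 in control libraries, while ASS1 itself had 3257 reads in DNMT3A libraries and 5422 in control libraries. They came to 1.38% of the ASS1 reads in DNMT3A libraries and 0.959% in control libraries. ASLP1, the pseudogene of ASL, had 23 reads in DNMT3A libraries and 24 in control libraries, and the 5 SLC25A15 pseudogenes had 0.

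Of the arginases, the mitochondrial one had the higher deposited level, but that level may hold reads of an overlapping gene. ARG2 (ENSG00000081181, chromosome 14, 67619798 to 67651720, plus strand) had 3.96, 3.16, 3.47 and 3.03 FPKM in DNMT3A libraries, against 4.62, 3.32, 4.44 and 3.88 FPKM in control libraries. The groups overlapped and the log2 fold change of -0.20 did not pass (SE 0.099, 95% interval -0.418 to 0.023, limma adjusted p = 0.185). Of its 2418 exonic bases 904 (37.4%) are shared with exons of VTI1B on the opposite strand, and no step of the protocol in the labels marks the strand, so reads there cannot be told apart. VTI1B itself had a log2 fold change of -0.076 (limma adjusted p = 0.388). It averaged 7.68 FPKM in DNMT3A libraries and 8.16 FPKM in control libraries, above the 3.41 and 4.06 FPKM of ARG2. The part of VTI1B reads in the level of ARG2, and so in its rank and its ratio to ARG1, was not tested.

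ARG1, the cytosolic arginase of the liver cycle (ENSG00000118520, chromosome 6, 131573144 to 131584332, plus strand), had 0.904, 0.584, 0.703 and 0.897 FPKM in DNMT3A libraries, against 1.02, 0.621, 0.707 and 0.752 FPKM in control libraries. It stayed under the filter, with 107 reads in DNMT3A libraries and 101 in control libraries. The means of 0.772 ± 0.156 FPKM in DNMT3A libraries and 0.776 ± 0.173 FPKM in control libraries (SD, n = 4 each) lay closer than the spread within either group (two-sided exact permutation p = 0.971). MED23 overlaps ARG1 on the opposite strand, with 0 exonic bases in common.

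Of the carriers, SLC25A13 fell slightly and SLC25A15 did not pass. SLC25A13, known as citrin, exports aspartate from mitochondria in exchange for glutamate and so feeds ASS1 (ENSG00000004864, chromosome 7, 96120220 to 96322147, minus strand). It was the most abundant of the 9 genes per length of all annotated exons, with 29.6, 27.7, 27.7 and 26.9 FPKM in DNMT3A libraries, against 32.3, 30.7, 31.4 and 31.8 FPKM in control libraries. The groups did not overlap, and the log2 fold change was -0.17 (SE 0.050, limma adjusted p = 0.0415). The call was kept without DNMT3A library 1 (limma adjusted p = 0.0400) and lost without each of the other 7 libraries (0.0545 to 0.105), with voom on recovered reads (0.0802) and with scaling to the plain library total (0.0549).

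SLC25A15, which exchanges ornithine for citrulline across the inner mitochondrial membrane (ENSG00000102743, chromosome 13, 40789412 to 40810111, plus strand), had 16.9, 16.6, 19.0 and 17.2 FPKM in DNMT3A libraries, against 18.4, 18.5, 18.8 and 20.8 FPKM in control libraries. DNMT3A library 3 lay within the control range. The log2 fold change of -0.13 did not pass (95% interval -0.267 to 0.011, limma adjusted p = 0.174). Its paralog SLC25A2 had 2 reads in all DNMT3A libraries and 3 in all control libraries.

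**Figure D2:**
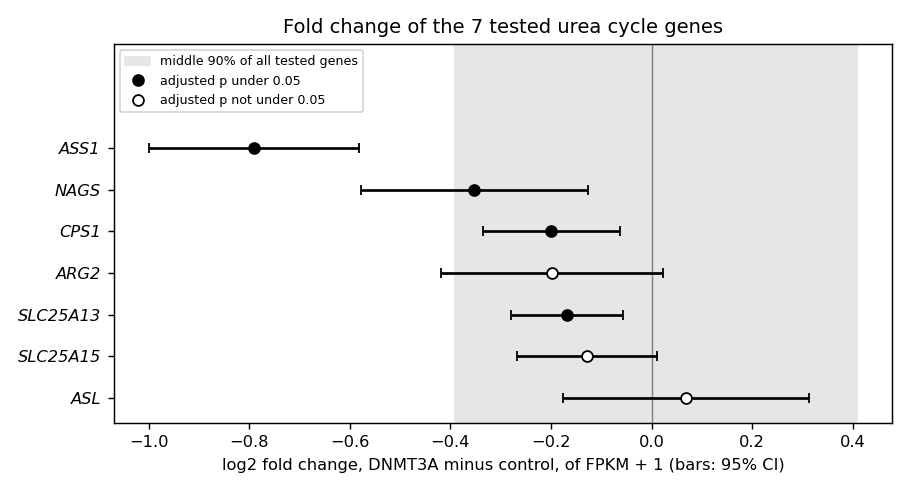
Log2 fold change of FPKM + 1, DNMT3A minus control (horizontal axis), for the 7 tested genes, with 95% intervals from limma. Filled points passed an adjusted p of 0.05, and the grey band holds the middle 90% of all tested genes (-0.391 to 0.409). ASS1 at -0.79 lies outside the band and the other 6 genes inside it.

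The order of the levels was SLC25A13, SLC25A15, ASS1, ASL, CPS1, ARG2, NAGS, ARG1 and OTC in DNMT3A libraries, and SLC25A13, ASS1, SLC25A15, CPS1, ASL, ARG2, NAGS, ARG1 and OTC in control libraries. ASS1 thus stood after SLC25A15 in DNMT3A libraries and before it in control libraries. In DNMT3A libraries the ranges of SLC25A15 and ASS1 overlapped, as did those of ASL and CPS1. In control libraries the only neighbours with overlapping ranges were CPS1 and ASL. These levels are per length of all annotated exons, which for CPS1 is 10775 bases against 5821 in its principal transcript. Per principal transcript, a choice made after the data were seen, CPS1 stood at 10.8 FPKM in DNMT3A libraries and 12.6 FPKM in control libraries, and ASS1 at 23.3 FPKM in DNMT3A libraries and 41.4 FPKM in control libraries. On that scale SLC25A13 came before ASS1 in DNMT3A libraries, with no overlap, while in control libraries ASS1 came before SLC25A13 (37.3 FPKM) with overlapping ranges.

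Ratios of paired genes within a library do not move with the library total. The ASS1/ASL ratio was 2.86, 2.30, 2.75 and 2.46 in DNMT3A libraries, against 4.39, 5.33, 5.42 and 4.40 in control libraries, with no overlap. The mean log2 ratio differed by -0.91 (two-sided exact permutation p = 0.0286, 0.0429 after Benjamini-Hochberg adjustment over the 3 pairs tested). The ratio of these successive cytosolic enzymes was thus lower in the DNMT3A libraries. ASL on its own did not pass, so the ratio uses the ASS1 values again and is no separate support for the fall of ASS1.

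The ratio of SLC25A13 to its paralog SLC25A12, the other mitochondrial aspartate/glutamate carrier, was 19.4, 17.9, 21.1 and 27.5 in DNMT3A libraries, against 33.7, 44.0, 40.1 and 34.1 in control libraries. The groups did not overlap, and the mean log2 ratio differed by -0.83 (two-sided exact permutation p = 0.0286, adjusted 0.0429). SLC25A12 had 1.53, 1.55, 1.31 and 0.979 FPKM in DNMT3A libraries, against 0.960, 0.697, 0.782 and 0.934 FPKM in control libraries, and the groups did not overlap. The ratio of the group means was 1.59 for SLC25A12 and 0.887 for SLC25A13. SLC25A12 averaged 1.34 FPKM in DNMT3A libraries and 0.843 FPKM in control libraries. It thus reached the filter of 1 FPKM only through the group where it was higher. The test of this ratio is therefore no support for a difference, and its values are descriptive. With 1 FPKM added to each gene the difference of the log2 ratios was -0.51 (two-sided exact permutation, adjusted p = 0.0429). The SLC25A15/SLC25A13 ratio was 0.571, 0.598, 0.685 and 0.640 in DNMT3A libraries, against 0.569, 0.604, 0.600 and 0.653 in control libraries, and these overlapped (two-sided exact permutation p = 0.686). The ARG2/ARG1 ratio was 3.38 to 5.42 in DNMT3A libraries and 4.52 to 6.28 in control libraries, and was not tested because ARG1 was under the filter.

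**Figure D3:**
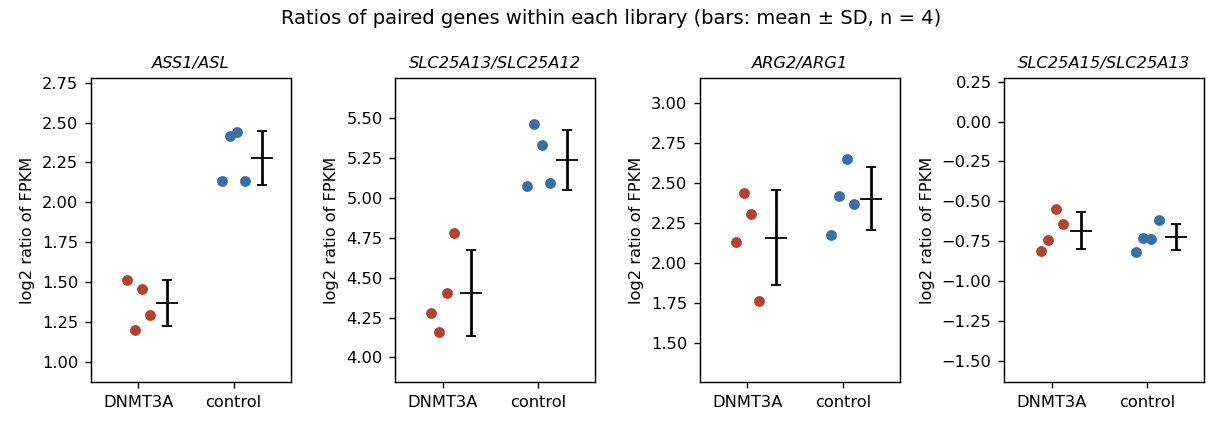
Log2 ratio of FPKM for 4 gene pairs (vertical axes, all spanning the same width) in each DNMT3A and control library, with bars for the mean ± SD (n = 4). The ASS1/ASL and SLC25A13/SLC25A12 points of the DNMT3A libraries lie below all control points, and the points of the other pairs overlap between groups.

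Arginine and ornithine also feed polyamines, creatine and proline, and 8 of the 19 tested genes of these routes were called, 6 lower and 2 higher (median log2 -0.168; of 25 listed genes 6 were under the filter). The share called over all tested genes was 20.6%. The 8 calls became 4 without the filter and 3 without control library 2, 4 without DNMT3A library 1 or control library 1, and 5 without DNMT3A library 3 or control library 3. ODC1, the ornithine decarboxylase that starts polyamine synthesis, had 120, 126, 116 and 107 FPKM in DNMT3A libraries, against 148, 163, 155 and 144 FPKM in control libraries, with no overlap (log2 -0.38, limma adjusted p = 0.00461). Spermidine synthase SRM fell likewise (log2 -0.39, limma adjusted p = 0.00587), and spermine oxidase SMOX rose (log2 0.38, limma adjusted p = 0.0318). The other called genes, named after their values were seen, were spermine synthase SMS (log2 -0.22, limma adjusted p = 0.0194), OAZ1, which restrains ODC1 (log2 -0.20, 0.0334), PRODH2 (log2 -0.22, 0.0387) and the acetyltransferase SAT1, which was higher (log2 0.38, 0.00650). AMD1, also needed for polyamine synthesis and likewise named afterwards, did not pass (log2 -0.034, limma adjusted p = 0.767). GATM, which starts creatine synthesis from arginine, fell to 1.07 FPKM in DNMT3A libraries, against 1.76 FPKM in control libraries (log2 -0.43, limma adjusted p = 0.0321).

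Others of this list did not pass. They included AGMAT (log2 -0.112, limma adjusted p = 0.165) and the proline synthesis genes PYCR1 (log2 0.110, adjusted p = 0.403) and ALDH18A1 (log2 0.167, adjusted p = 0.0706). ALDH18A1 passed without DNMT3A library 4 (limma adjusted p = 0.0197), with voom (0.0353), with library-total scaling (0.0441) and with array weights (0.00757). AGMAT passed with array weights (limma adjusted p = 0.0436). SMOX lost its call without DNMT3A library 3 or control library 2, 3 or 4 (limma adjusted p = 0.0650 to 0.0883). GATM lost it without DNMT3A library 1 or any 1 control library (limma adjusted p = 0.0570 to 0.0805). Without the FPKM filter neither SMOX (0.105) nor GATM (0.108) passed the limma test.

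Of 18 tested genes that supply ammonia, glutamate and aspartate 4 fell, 1 rose and 13 did not pass (median log2 -0.021), against 20.6% called among all tested genes. The 1 that rose, SLC25A12, passed the filter only through the DNMT3A libraries, so its call is no support for a rise. The 5 calls became 2 without the filter, 2 without DNMT3A library 3 or control library 1, 2 or 3, 3 without DNMT3A library 1 or 2, and 8 with array weights. Fumarase FH had 42.6, 41.9, 45.4 and 45.2 FPKM in DNMT3A libraries, against 51.7, 59.3, 56.1 and 51.2 FPKM in control libraries (log2 -0.31, limma adjusted p = 0.00827). Mitochondrial malate dehydrogenase MDH2 had means of 50.1 ± 4.32 FPKM in DNMT3A libraries and 62.0 ± 2.64 FPKM in control libraries (SD, n = 4 each; log2 -0.31, limma adjusted p = 0.0144). For neither did the groups overlap. SIRT5, named after its value was seen, was also called lower (log2 -0.252, limma adjusted p = 0.0376). It averaged 3.62 FPKM in DNMT3A libraries and 4.51 FPKM in control libraries. The cytosolic malate dehydrogenase MDH1, likewise named afterwards, did not pass (log2 -0.112, limma adjusted p = 0.237). The aspartate-forming transaminase GOT2 (log2 -0.032, adjusted p = 0.670) and glutamate dehydrogenase GLUD1 (log2 -0.073, adjusted p = 0.533), which releases ammonia, did not pass the limma test, nor did GPT2 (log2 0.157, adjusted p = 0.176), which passed with array weights (0.0253).

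The alanine transaminase GPT fell at a low level (1.13 FPKM in DNMT3A libraries and 1.88 FPKM in control libraries, log2 -0.43, limma adjusted p = 0.0363), and SLC25A12 rose (log2 0.34, limma adjusted p = 0.0470). SLC25A12 averaged 0.843 FPKM in control libraries and passed the filter only through the DNMT3A libraries, so its call is no support for a rise. GPT lost its call without DNMT3A library 1, 3 or 4 or control library 1, 2 or 3 (limma adjusted p = 0.0517 to 0.0985). SLC25A12 lost it without every library except DNMT3A library 4 (limma adjusted p = 0.0644 to 0.118), and with a pseudocount of 0.1 (0.0572). Without the FPKM filter neither GPT (0.119) nor SLC25A12 (0.131) passed the limma test.

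Of 17 listed carriers for amino acids, ammonia and urea 9 were tested, and 2 rose, 3 fell and 4 did not pass (median log2 0.009). Over all tested genes 9.93% were called higher and 10.6% lower. The 5 calls became 3 without the filter or without control library 1 or 3. SLC38A2, a sodium-coupled carrier of neutral amino acids, rose, with 172, 136, 163 and 177 FPKM in DNMT3A libraries, against 70.6, 76.0, 73.7 and 78.1 FPKM in control libraries (log2 1.10, limma adjusted p = 5.63e-05). SLC3A2, the heavy chain shared by several amino acid exchangers, fell to 42.7 ± 2.23 FPKM in DNMT3A libraries, against 64.2 ± 3.81 FPKM in control libraries (SD, n = 4 each; log2 -0.58, limma adjusted p = 0.000382). The glutamine carrier SLC1A5 also fell (log2 -0.38, limma adjusted p = 0.00391), and the ammonium channel RHBG rose (log2 0.31, limma adjusted p = 0.0215). With control library 1 or 3 left out RHBG did not pass (limma adjusted p = 0.0591 and 0.0652), nor without the FPKM filter (0.0622). The arginine carrier SLC7A1, named after its value was seen, fell to 16.9 FPKM in DNMT3A libraries, against 21.1 FPKM in control libraries (log2 -0.30, limma adjusted p = 0.0359). SLC7A2, also an arginine carrier, had a log2 of 0.34 and did not pass (limma adjusted p = 0.0641). It passed without DNMT3A library 2 (0.0184), with voom (0.0118), with array weights (0.00532), with library-total scaling (0.0426) and with the replicate block (0.0372). SLC38A3 (log2 0.009, limma adjusted p = 0.951) and SLC7A6 (log2 0.281, adjusted p = 0.0776) did not pass, though SLC7A6 did with voom (0.0271). The urea transporters SLC14A1 and SLC14A2 were listed at 0 in all libraries.

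Among 13 tested regulators known for urea cycle genes 1 fell, 0 rose and 12 did not pass (median log2 -0.083). The share called over all tested genes, 20.6%, was higher than in this list. The count of called regulators was 2 without DNMT3A library 3 or 4 or control library 2 or 4, and 3 with array weights. The one that fell was CEBPA, a liver transcription factor needed for urea cycle gene expression in mouse. It had 25.2, 28.8, 21.0 and 17.4 FPKM in DNMT3A libraries, against 50.5, 46.0, 45.6 and 38.9 FPKM in control libraries, with no overlap (log2 -0.96, SE 0.140, limma adjusted p = 0.00199). HNF4A (log2 0.177, limma adjusted p = 0.247), CEBPB (log2 -0.179, adjusted p = 0.310) and ATF4 (log2 0.002, adjusted p = 0.987) did not pass, and HNF4A passed without DNMT3A library 4 (0.0149).

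**Figure D4:**
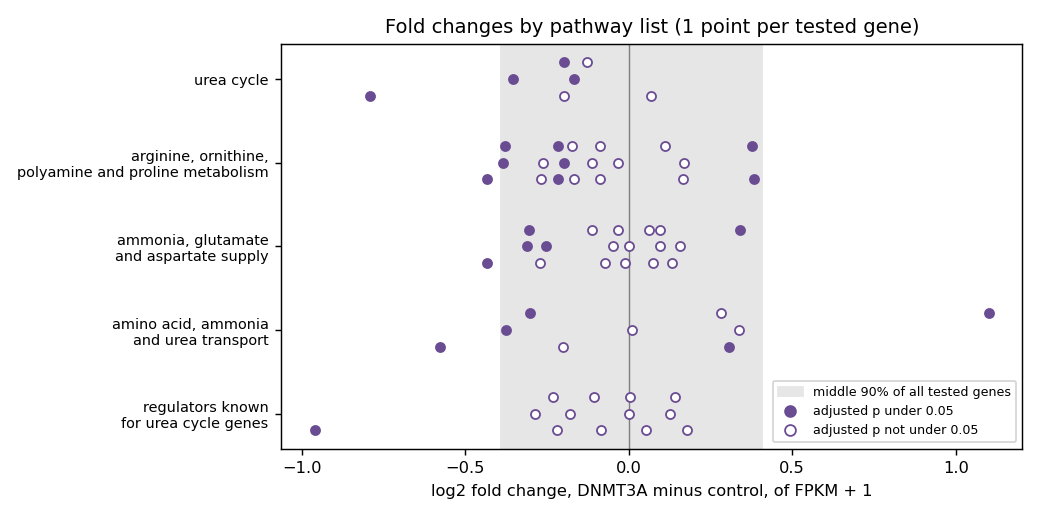
Log2 fold change of FPKM + 1, DNMT3A minus control (horizontal axis), for each tested gene of the urea cycle and of 4 lists of related genes (rows). Filled points passed a limma adjusted p of 0.05 and the grey band holds the middle 90% of all tested genes. Outside the band on the left lie ASS1, GATM, GPT, SLC3A2 and CEBPA, and on the right SLC38A2.

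Genes near the members on the chromosome were counted next. Over all tested genes 9.93% were called higher and 10.6% lower. Within 1 Mb of ASS1 16 other genes were tested, of which 1 rose and 2 fell (median log2 0.061). Within 1 Mb of NAGS 8 of 34 rose and 0 fell (median log2 0.133), while NAGS itself was called lower. That call of NAGS was kept in only 1 of the 8 fits that left out a library. The nearest of the 8 genes that rose was TMEM101, chosen after its value was seen. Its lower coordinate is 6642 bases from that of NAGS (log2 0.297, limma adjusted p = 0.0152). Around SLC25A15 0 of 11 rose and 1 fell (median log2 -0.105), and of 198 other tested genes on chromosome 13 9 rose and 66 fell (median log2 -0.154). The log2 fold change of SLC25A15, -0.13, lay near that of its chromosome, and the part of the chromosome in it was not tested. ARG2, with a log2 fold change of -0.20, lies on chromosome 14, where of 394 other tested genes 118 rose and 29 fell (median log2 0.097). Around SLC25A13 0 of 5 rose and 1 fell (median log2 -0.178), around CPS1 0 of 4 were called, and around ARG2 1 of 8 rose and 1 fell.

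**Figure D5:**
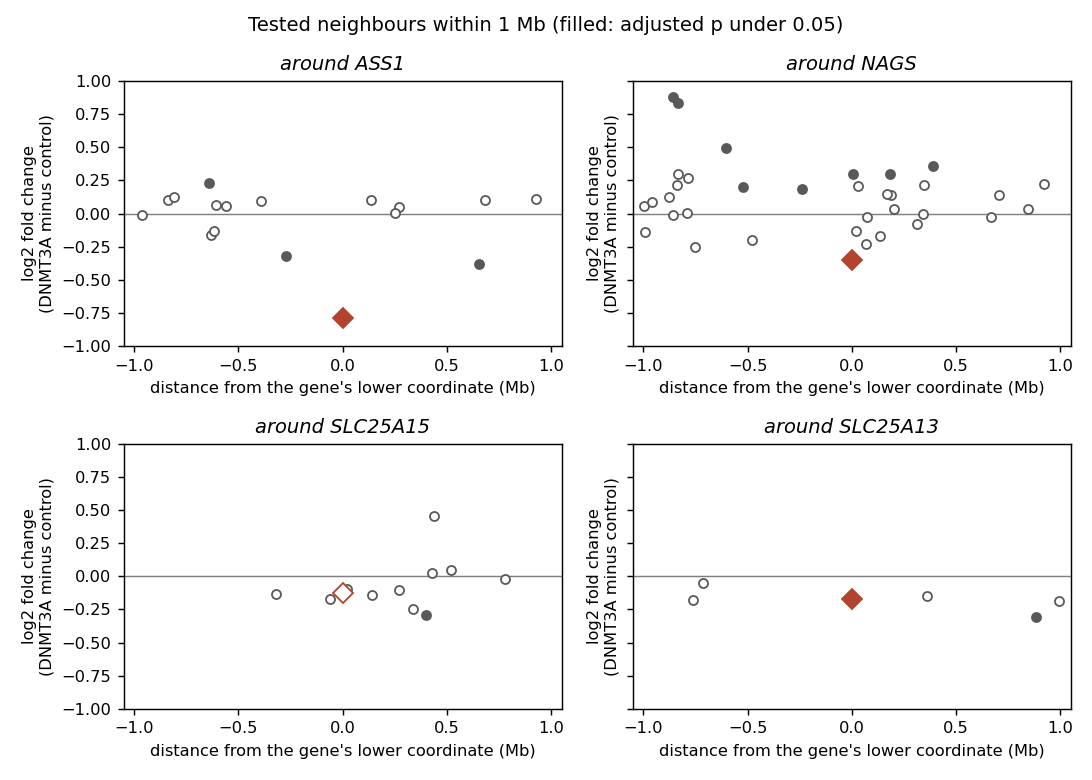
Log2 fold change of FPKM + 1, DNMT3A minus control (vertical axes), of the tested genes within 1 Mb of ASS1, NAGS, SLC25A15 and SLC25A13, against the distance of their lower coordinate from that of the member in Mb (horizontal axes). Diamonds are the members and filled symbols passed a limma adjusted p of 0.05. ASS1 lies below all 16 of its neighbours, and all 8 called neighbours of NAGS lie above 0.

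The protein-coding genes whose deviations from the control mean over the 8 libraries were most like those of ASS1 were LCN2, CITED4 and SOX18. Likeness was the root mean square difference of the deviations on the log2(FPKM + 1) scale, 0.055, 0.059 and 0.092, among 10037 genes. Their log2 fold changes were -0.84, -0.79 and -0.87. The deviations contain the group difference, so fold changes near that of ASS1 follow from the choice and are no separate result. For CPS1 the nearest were CRIM1, BCLAF1 and CCNY (0.039 to 0.045), for NAGS SNRPD2, RPS7 and GUK1 (0.067 to 0.077) and for SLC25A13 SPIRE1, GNB1 and CTNNA1 (0.028 to 0.030). The deviations share the libraries and the scaling.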

How the data were processed

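Poly(A) RNA of 8 HepG2 libraries, 4 DNMT3A and 4 control, was sequenced, with groups and numbers as in the titles. Per the submitters' processing notes, HISAT2 2.0.5 and the build hg38 were used. How reads were counted is not given in the sources used here. Per the file headers, the deposited columns hold FPKM and a gene length. FPKM times gene length gave multiples of 1 step per library, whole within 0.01 for 100% of values, from which reads were recovered. The step divided by a median-ratio size factor computed from those reads was equal in all 8 libraries (1.0000 relative to their mean), so the deposited FPKM columns follow median-ratio factors rather than read totals, and a further median-ratio scaling changed no call. For the 9 members the gene length in the table equalled the union of exons in GENCODE 29.

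Genes averaging 1 FPKM or more were tested on log2(FPKM + 1) with limma 3.58.1 in R 4.3.3 (variance trend, Benjamini-Hochberg adjustment over all tested genes, threshold 0.05). Single values were compared with two-sided exact permutation tests over 70 assignments (SciPy 1.17.1). The fit was also run on simulated data with far fewer changed genes than were called here, so that run is no support for the calls. The members and lists were chosen with earlier results of these data known. Named genes were the members, DNMT3A, per list up to 4 called genes (by size of change) and up to 3 uncalled ones (by mean FPKM), the paralogs SLC25A12 and SLC25A2, the 3 most similar genes of each called member, and pseudogenes and overlapping genes. As alternatives served median-ratio scaling, a pseudocount of 0.1, array weights, voom, dropping the filter, a block for the replicate number, leaving out each library and, chosen after the data were seen, library-total scaling and principal transcript length.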

Additional observations from a re-analysis of the deposited data

How the results depend on the processing

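ASS1 kept its direction and its call under all 15 alternatives (log2 -0.851 to -0.713, limma adjusted p = 2.46e-05 to 0.00558). Of these, median-ratio scaling all but repeats the main fit, because the deposited FPKM already follow such factors. The count of called members, 4, was 2 without a filter, 1 with the replicate block and 1 to 3 without 1 library. Over all genes the count of 2389 was 3756 with array weights (1825 higher and 1931 lower) and 1508 to 2443 without 1 library. It was lowest without control library 2 (1551) and 3 (1508). Among values of single genes 413 kept their call or lack of one, 59 lost a call, 13 gained one and 10 turned sign. The 413 include all values with median-ratio scaling. Without a filter 810 genes were called higher and 786 lower. Scaling to library totals gave 1318 higher and 1031 lower calls, against 1154 and 1235.

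For arginine, ornithine, polyamine and proline genes 8 calls became 4 without a filter, 5 with the replicate block and 3 to 9 without 1 library. For ammonia, glutamate and aspartate supply 5 became 2 without a filter, 8 with array weights and 2 to 5 without 1 library. The 5 include SLC25A12, which passed the filter only through the DNMT3A libraries. For transport 5 became 3 without a filter and 3 to 5 without 1 library. For regulators 1 became 3 with array weights, 2 with the replicate block and 1 to 2 without 1 library. The causes were not tested.

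With 1 library left out, the sign turned for uncalled ASL (-0.024 to 0.15), GLUD1 (-0.105 to 0.003), SLC38A3 (-0.043 to 0.051) and ATF4 (-0.038 to 0.042). With 1 FPKM added to each gene the ASS1/ASL difference kept its call (two-sided exact permutation, adjusted p = 0.0429). SLC25A15/SLC25A13 had no call with it (adjusted p = 0.657) or without it (0.686). The SLC25A13/SLC25A12 test is no support in either setting, because SLC25A12 passed the filter only through the DNMT3A libraries. Without 1 library ASS1/ASL ranged from -0.962 to -0.857, SLC25A13/SLC25A12 from -0.96 to -0.753 and SLC25A15/SLC25A13 from -0.008 to 0.079; those have no test, since 3 against 4 libraries cannot pass. Per principal transcript, 5 of 9 genes kept their rank in DNMT3A libraries and 7 of 9 in control libraries.

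Deviations of same-numbered libraries correlated at 0.159, -0.0816, -0.0248 and 0.0978. Those of libraries with unlike numbers correlated at -0.322 to 0.202. These values cannot decide whether the replicate numbers pair the libraries. The block ended the calls of CPS1, NAGS, SLC25A13 and SLC25A12 (limma adjusted p = 0.104, 0.0549, 0.0968 and 0.0868) and made one of SLC7A2 (0.0372). Depth limits OTC and ARG1.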
